A study of Caenorhabditis elegans with 23 samples.

Results

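The 8 genes nrde-1, nrde-2, nrde-4, set-25, set-32, met-2, morc-1 and emb-4 of the nematode Caenorhabditis elegans act in nuclear RNAi and heterochromatin formation. They were chosen by name, and all 8 were found among the 46904 gene identifiers of both count tables. All 8 also passed the filter on low counts, among 13983 genes tested in mRNA and 12241 tested in small RNA.

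Whole adult worms on the first day of adulthood, grown at 20 °C on E. coli, gave 12 mRNA libraries and 11 small RNA libraries. The 4 groups were N2, the laboratory strain, MY16, isolated from the wild, and a second group of each strain marked Star (N2_Star, MY16_Star). What Star stands for is not given in the sources used here, so the Star groups are compared by name only. Each group had 3 libraries per assay, except N2_Star with 2 small RNA libraries. The submitters' design text calls the replicates biological and names MY16_Star as the group that lost a small RNA sample, but 3 MY16_Star and 2 N2_Star small RNA libraries were supplied.

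In nuclear RNAi, a small RNA bound to a nuclear Argonaute protein (HRDE-1 in the germline, NRDE-3 in somatic cells) pairs with a transcript that is still being made. NRDE-2 is then recruited to that transcript, and NRDE-1 and NRDE-4 act with it to inhibit transcription and to place methylation on lysine 9 of histone H3. In the germline this silencing can be inherited, and the genes described here include the methyltransferases, a chromatin-compacting ATPase and a splicing-linked helicase that work with it. Small RNA was taken to be counted antisense to each gene, from the letters AS in the deposited table's name, so it measures small RNA against these genes and not the small RNA that their products use.

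Per the annotation of the WBcel235 assembly, which is ce11, all 8 are protein-coding genes. nrde-1 (WBGene00007577) lies on chromosome III at 3713463 to 3718750, nrde-2 (WBGene00011333) on chromosome II at 10242596 to 10247638, and nrde-4 (WBGene00001584) on chromosome IV at 7646320 to 7654262. Of the methyltransferase genes, set-25 (WBGene00012802) lies on chromosome III at 13283824 to 13293090, set-32 (WBGene00008062) on chromosome I at 9519244 to 9521275, and met-2 (WBGene00019883) on chromosome III at 8375300 to 8380863. morc-1 (WBGene00022531) lies on chromosome III at 5203685 to 5206911 and emb-4 (WBGene00001258) on chromosome V at 18860285 to 18894974. Counts cover whole genes, with no split into exons, introns or UTRs. nrde-2, set-32, met-2 and morc-1 overlap no other annotated gene. nrde-1 overlaps sike-1, nrde-4 overlaps cima-1, set-25 overlaps unc-64, F56A8.8 and the piRNA gene 21ur-12617, and ceh-51 lies inside emb-4. Reads in those overlaps could have been shared between genes, since the strand of each gene was not used here: sike-1 had 2769 small RNA counts over all libraries, and the 5 others 141 or fewer. In mRNA sike-1 had 6795 counts against 15191 of nrde-1, unc-64 had 5436 against 1309 of set-25, and the other 4 overlapping genes had 477 or fewer. These are counts of whole genes, and those inside the overlaps were not separated. unc-64 ends at 13283887, shortly after set-25 starts at 13283824, and sike-1 starts at 3718652, shortly before nrde-1 ends at 3718750. Both overlaps are thus short beside the genes, and how far the set-25 mRNA values are affected is uncertain.

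Gene counts per library ran from 9362590 to 23150198 in mRNA and from 1778321 to 19563562 in small RNA. The shallowest small RNA libraries were N2 replicate 3, with 1778321 counts, and MY16 replicate 1, with 1961627. Values are normalised read counts (CPM, counts scaled by library size) scaled by edgeR's TMM factors, and each mean is given with its SD. The 8 genes had between 47 and 4882 counts in every mRNA library and between 54 and 14416 in every small RNA library. A gene is called changed where the p of edgeR's quasi-likelihood test, adjusted by Benjamini-Hochberg over all genes of the assay, is under 0.05. Since RNA came from whole worms, fewer cells of a type and less RNA per cell cannot be told apart in any value below.

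Small RNA against nrde-2 was 3.17-fold lower in MY16 than in N2 and 2.77-fold lower in MY16_Star than in N2_Star, while the mRNA of nrde-2 overlapped in every pair of groups. nrde-2 encodes the factor that is first recruited to the nascent transcript. In N2 its small RNA was 519.8, 603 and 455 CPM, and in N2_Star it was 418 and 559.8 CPM. In MY16 it was 124, 191 and 180.4 CPM, and in MY16_Star it was 156, 183 and 191 CPM. All 5 libraries of N2 and N2_Star were thus far above all 6 of MY16 and MY16_Star. In small RNA 33.3% of all tested genes did not overlap between the isolates and 50.2% between the Star groups. The share of genes that separate all 5 from all 6 was not computed. The genome build named for these data, ce11, is that of N2. Whether sequence differences between the isolates affect the counts of nrde-2 or of any other gene was not tested.

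The mean was 526 ± 74.1 CPM in N2 and 165 ± 36.1 CPM in MY16 (SD, n = 3 each), a log2 difference of -1.67 ± 0.215 (SE) with an edgeR adjusted p of 0.00017. The 95% interval of the log2 difference ran from -2.14 to -1.197. In this comparison 18.6% of all tested genes were called in small RNA, 8.55% higher and 10% lower in MY16. The mean was 489 ± 101 CPM in N2_Star (n = 2) and 176 ± 18.4 CPM in MY16_Star (n = 3), a log2 difference of -1.47 ± 0.230 (SE) with an edgeR adjusted p of 0.00118. There 14.5% of all tested genes were called. Leaving out any 1 library gave log2 differences from -1.78 to -1.52 between the isolates and from -1.69 to -1.29 between the Star groups, each with an adjusted p under the threshold.

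The Star groups stayed near their own isolates for this small RNA. MY16_Star minus MY16 was 0.09 on the log2 scale, with a 95% interval from -0.37 to 0.55 and an edgeR adjusted p of 0.975. N2_Star minus N2 was -0.11, with an interval from -0.62 to 0.40 and an edgeR adjusted p of 1. These intervals exclude a change of the size seen between the isolates.

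The mRNA of nrde-2 ranged widely inside each group. It was 85.1, 132 and 139 CPM in N2, 101, 139 and 153 CPM in N2_Star, 123, 90.5 and 134 CPM in MY16, and 45.7, 113 and 124 CPM in MY16_Star. The groups overlapped in every comparison. The MY16 mean of 116 ± 22.5 CPM and the N2 mean of 118 ± 29.0 CPM differed by -0.03 on the log2 scale, with a 95% interval from -0.73 to 0.67. Between the Star groups the log2 difference was -0.48, with an interval from -1.18 to 0.22 and an edgeR adjusted p of 0.286, and without MY16_Star replicate 1 it was -0.12.

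**Figure D1:**
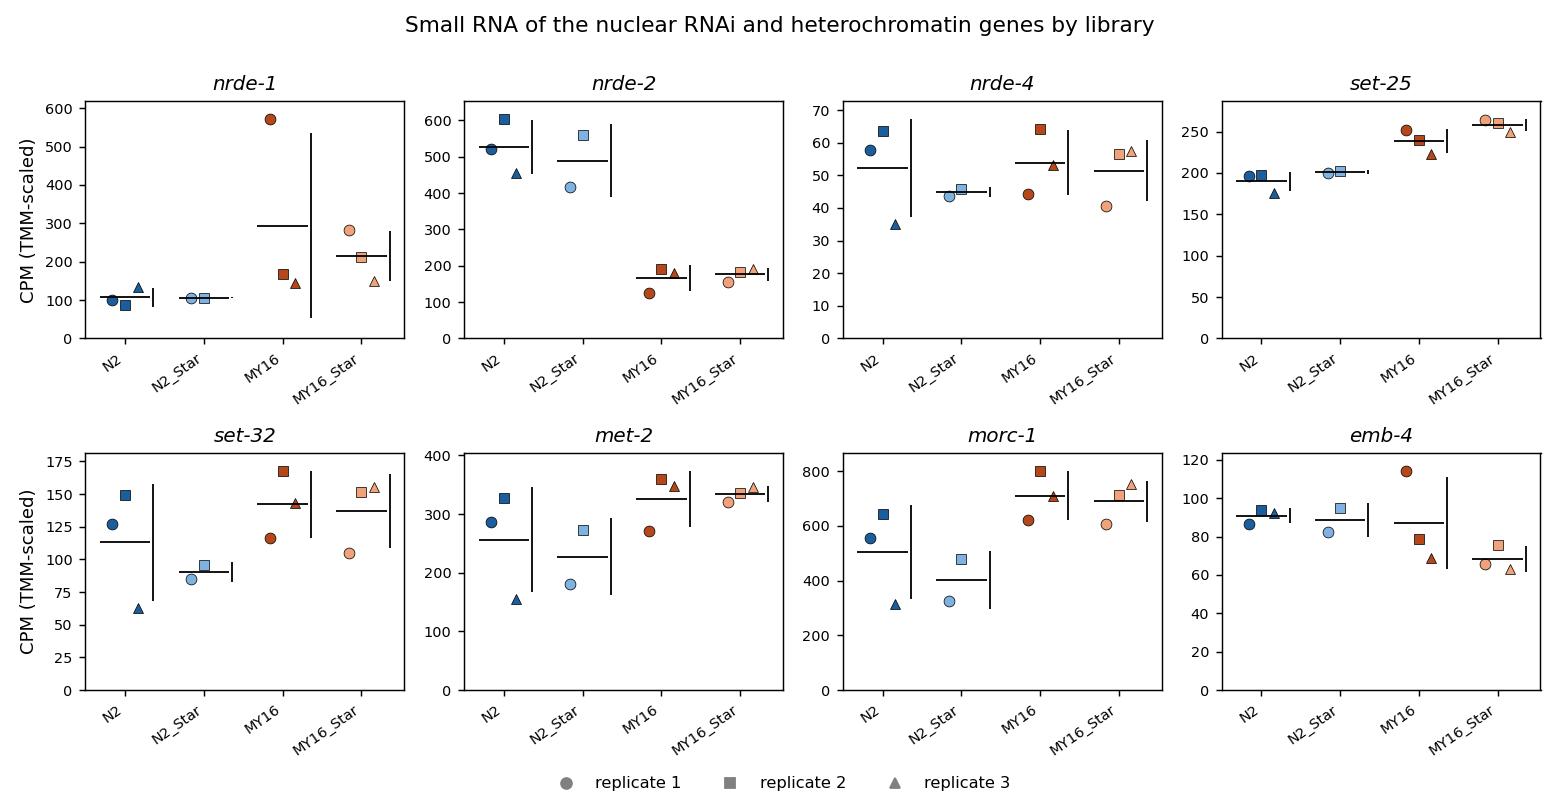
Small RNA of each of the 8 genes by library, in TMM-scaled CPM from 0 on the vertical axis of each panel, for N2, N2_Star, MY16 and MY16_Star. Symbols are replicates 1, 2 and 3, horizontal bars are group means and vertical bars are 1 SD. The MY16 and MY16_Star libraries of nrde-2 all sit under 200 CPM and those of N2 and N2_Star over 400 CPM, and the point of nrde-1 at 571 CPM is MY16 replicate 1.

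Small RNA against nrde-1 was higher in MY16 than in N2, and most of that difference came from 1 library. nrde-1 encodes a factor that associates with both the nascent transcript and chromatin in nuclear RNAi. Its small RNA was 571, 167 and 143 CPM in MY16, 282, 213 and 151 CPM in MY16_Star, 100.2, 87.6 and 134 CPM in N2, and 105 and 106 CPM in N2_Star. All 6 libraries of MY16 and MY16_Star were above all 5 of N2 and N2_Star, and the share of all tested genes that do so was not computed. MY16 replicate 1, the second shallowest library, was at 368% of the mean of the other 2 MY16 libraries, a ratio that 1.69% of all tested genes reached in that library.

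The means were 294 ± 240.4 CPM in MY16 and 107 ± 24.0 CPM in N2 (SD, n = 3 each). The log2 difference was 1.45 ± 0.460 (SE), with a 95% interval from 0.44 to 2.46 and an edgeR adjusted p of 0.0477. Without MY16 replicate 1 the log2 difference was 0.53 and the adjusted p of edgeR 0.218, and the call was also lost without N2 replicate 1, 2 or 3, where the log2 difference was 1.37, 1.29 and 1.62 and the adjusted p 0.148, 0.153 and 0.0639. Between the Star groups the means were 215 ± 65.7 and 106 ± 1.08 CPM, and the log2 difference of 1.03, with an interval from -0.11 to 2.16, had an edgeR adjusted p of 0.215. With only the Star groups in the fit that p was 0.0394, and with no filter on low counts 0.00456. The mRNA of nrde-1 was between 49.0 and 85.5 CPM in all 12 libraries and overlapped between all groups.

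nrde-4, whose product acts with NRDE-1 downstream of NRDE-2, differed in neither assay at the threshold. Its small RNA stayed between 35.1 and 64.3 CPM across the 11 libraries and overlapped in all 4 pairs of groups. MY16 minus N2 was 0.03 on the log2 scale, with a 95% interval from -0.47 to 0.52. Its mRNA was 110.3, 141 and 142 CPM in N2 and 142, 118 and 145 CPM in MY16, a log2 difference of 0.04 with an interval from -0.42 to 0.51.

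Of the 3 methyltransferase genes, none was called in either assay by edgeR, although the isolates did not overlap in set-25 small RNA. SET-25 trimethylates lysine 9 of histone H3 and is needed to anchor heterochromatin at the nuclear edge, MET-2 adds the first methyl groups to the same lysine, and SET-32 takes part in establishing inherited silencing. Small RNA against set-25 was 252, 239.8 and 223 CPM in MY16, 264, 260.0 and 249.8 CPM in MY16_Star, 196, 197 and 176 CPM in N2, and 199.8 and 203 CPM in N2_Star. Every library of MY16 and MY16_Star was above every library of N2 and N2_Star, and the spread inside each group was narrow. Of all tested genes, 33.3% did not overlap between the isolates and 50.2% between the Star groups. The share separated in both at once, as here, was not computed.

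The set-25 difference in small RNA was 0.33 on the log2 scale between the isolates, with a 95% interval from 0.02 to 0.63 and an edgeR adjusted p of 0.139. Between the Star groups it was 0.36, with an interval from 0.02 to 0.70 and an edgeR adjusted p of 0.156. Its mRNA was between 4.53 and 8.46 CPM in all libraries. MY16_Star mRNA, at 6.88, 6.88 and 8.42 CPM, lay above N2_Star, at 5.54, 4.65 and 4.53 CPM, without overlap, as for 36.7% of all tested genes in mRNA. The log2 difference was 0.59, with a 95% interval from 0.01 to 1.17 and an edgeR adjusted p of 0.12.

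For set-32, mRNA was 15.97, 17.5 and 18.8 CPM in MY16_Star and 12.1, 13.9 and 14.1 CPM in N2_Star. These groups did not overlap, as was the case for 36.7% of all tested genes in mRNA. The log2 difference was 0.38, with a 95% interval from 0.01 to 0.75 and an edgeR adjusted p of 0.114. DESeq2, with a log2 difference of 0.43 and an adjusted p of 0.0385, did call it. Small RNA against set-32 was also without overlap between the Star groups, as it was for 50.2% of all tested genes. It was 105, 151 and 156 CPM against 84.8 and 95.9 CPM, with a log2 difference of 0.61 and an interval from -0.09 to 1.30. N2 was the most variable group, at 127, 149 and 63.1 CPM, the last being the shallowest library.

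met-2 small RNA followed the same order. It was 319.8, 336 and 347 CPM in MY16_Star and 181 and 273 CPM in N2_Star, without overlap, as for 50.2% of all tested genes in small RNA. The log2 difference was 0.56, with a 95% interval from -0.09 to 1.21 and an edgeR adjusted p of 0.241. In N2 it was 287, 327 and 156 CPM and in MY16 271, 359 and 347 CPM, so the isolates overlapped. The mRNA of met-2 gave a log2 difference of -0.00 between the isolates, with an interval from -0.68 to 0.68.

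Of the 8 mRNAs, edgeR called that of morc-1 alone, which was higher in MY16_Star than in N2_Star. MORC-1 is an ATPase that compacts chromatin and is required in the worm germline for inherited nuclear RNAi. Its mRNA was 113, 116 and 108 CPM in N2, 122, 121 and 108 CPM in MY16, 122, 128 and 127 CPM in MY16_Star, and 74.4, 80.7 and 93.7 CPM in N2_Star. The 3 N2_Star libraries were thus below all 9 others, and the share of all tested genes with this pattern was not computed.

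The mean was 126 ± 3.46 CPM in MY16_Star and 83.0 ± 9.84 CPM in N2_Star (SD, n = 3 each), a 1.51-fold difference. On the log2 scale it was 0.60 ± 0.115 (SE), with a 95% interval from 0.35 to 0.85 and an edgeR adjusted p of 0.00556. Of all genes tested, 22.5% were called in this comparison, 7.69% higher and 14.8% lower in MY16_Star. The call was lost where only the Star groups entered the fit, with a log2 difference of 0.64 and an edgeR adjusted p of 0.0503, and it held without any 1 library. In that fit 235 genes were higher and 557 lower among 13178, against 1075 and 2070 with all 4 groups.

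Against N2, the N2_Star libraries of morc-1 did not overlap either, as was the case for 18.9% of all tested genes in mRNA. The log2 difference was -0.44 ± 0.115 (SE). Its 95% interval ran from -0.69 to -0.19, and its p in edgeR was 0.00237 unadjusted and 0.144 adjusted, whereas DESeq2 gave an adjusted p of 0.0286. The oocyte markers were below 0 for 19 of 20 in this comparison, with a median of -0.32 against -0.01 over all genes, and the 5 early embryo markers were all above 0, with a median of 0.57. Sperm markers were below 0 for 16 of 23, with a median of -0.09. Intestine and muscle markers were above 0 for 10 of 18, with a median of 0.05. edgeR called 0 in each list (5, 2, 0 and 3 unadjusted, 1, 0, 0 and 1 by DESeq2, in the order given), and their part was not tested. For morc-1, MY16_Star minus MY16 was 0.10, with an interval from -0.15 to 0.35. There the oocyte markers were above 0 for 20 of 20, with a median of 0.32 against -0.04 over all genes. Sperm markers were below 0 for 21 of 23 (median -0.64) and intestine and muscle markers for 12 of 18 (median -0.27). Of 5 early embryo markers 3 were above 0, with a median of 0.16. edgeR called 0 in each list (8, 2, 4 and 0 unadjusted, 0 in each by DESeq2, in the order given), and their part was not tested there either. For morc-1 the difference between both Star contrasts was 0.54 ± 0.162 (SE), with an edgeR p of 0.00582 unadjusted and 0.312 adjusted.

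Germline marker levels also differed between the Star groups. Of 20 oocyte and maternal germline markers, 13 were higher and 0 lower in MY16_Star than in N2_Star (edgeR, with 17 at an unadjusted p under 0.05 and 17 higher and 0 lower in DESeq2), and their median log2 difference was 0.66 against -0.12 over all genes. Their summed mRNA ran from 19872 to 25019.9 CPM in MY16_Star and from 10617 to 16804 CPM in N2_Star. N2 had 16084 to 18424 CPM and MY16 15662.5 to 19354 CPM, both overlapping N2_Star and below MY16_Star. Of 23 sperm markers, 11 were lower and 0 higher, and their sums were 154 to 186 CPM in MY16_Star and 159.6 to 314 CPM in N2_Star. The sperm sums were 276 to 294 CPM in N2 and 168 to 214 CPM in MY16. Between those isolates 22 of 23 sperm markers were also below 0, with a median of -0.90 (edgeR called 1 lower, 8 unadjusted, 2 lower by DESeq2). There the log2 difference of morc-1 mRNA was 0.06. No oocyte or sperm marker was at 0 in every mRNA library of a group, and 1 early embryo marker, med-1, was at 0 in all 12. Of 5 early embryo markers tested 2 were lower and 0 higher, and of 18 intestine and muscle markers 2 were lower and 1 higher. These counts compare with 22.5% of all tested genes called between the Star groups, 7.69% higher and 14.8% lower in MY16_Star. The marker lists were chosen with earlier results of these data known. The part of the marker genes in the morc-1 result was not tested.

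Small RNA against morc-1 was 606, 713 and 751 CPM in MY16_Star and 326 and 477 CPM in N2_Star. The groups did not overlap, as was the case for 50.2% of all tested genes in small RNA. The log2 difference was 0.78 ± 0.300 (SE), with a 95% interval from 0.12 to 1.44 and an edgeR adjusted p of 0.111. In N2 it was 554, 644 and 315 CPM and in MY16 620.3, 801 and 709 CPM, with a log2 difference of 0.49 and an interval from -0.09 to 1.07. For morc-1 both assays were higher in MY16_Star than in N2_Star, and the mRNA alone was called.

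emb-4, which encodes an intron-binding helicase of the spliceosome that works with nuclear Argonautes, had the narrowest mRNA range of the 8. Its mRNA stayed between 165 and 231 CPM in the 12 libraries, a ratio of 1.40 between the highest and the lowest, and every pair of groups overlapped. Its small RNA was 65.9, 75.9 and 63.3 CPM in MY16_Star and 82.2 and 95.1 CPM in N2_Star. These did not overlap, as was the case for 50.2% of all tested genes in small RNA. The log2 difference was -0.37, with a 95% interval from -0.82 to 0.08 and an edgeR adjusted p of 0.257. In MY16, replicate 1 at 114 CPM was above both others, at 78.5 and 68.8 CPM, and N2 was at 86.6, 94.0 and 92.4 CPM.

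**Figure D2:**
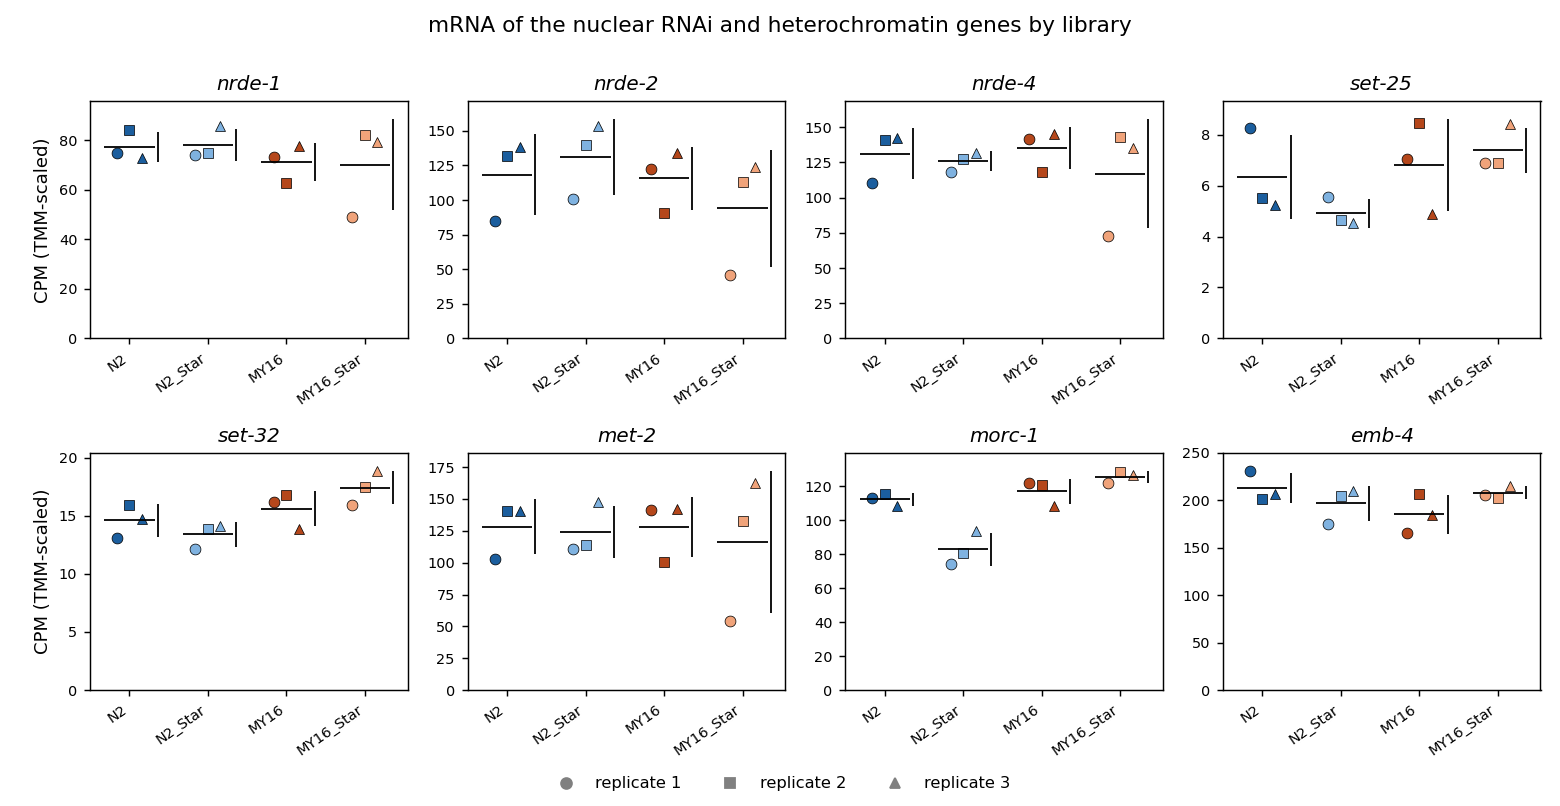
mRNA of each of the 8 genes by library, in TMM-scaled CPM from 0 on the vertical axis of each panel, for N2, N2_Star, MY16 and MY16_Star. Symbols are replicates, horizontal bars are group means and vertical bars are 1 SD. The 3 N2_Star libraries of morc-1, at 74.4 to 93.7 CPM, are below the others, and MY16_Star replicate 1 is lowest for nrde-1, nrde-2, nrde-4 and met-2.

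Calls among the 8 genes were read against those among all genes. In mRNA edgeR called 0 of the 8 between MY16 and N2 (0 at an unadjusted p under 0.05, 0 by DESeq2), where 4.03% of all genes were called. It called 0 between MY16_Star and MY16 (0 unadjusted, 0 by DESeq2), against 0.0215% of all genes, and 0 between N2_Star and N2 (1 unadjusted, 1 by DESeq2), against 0.15%. The 1 of 8 between the Star groups (12.5%, with 3 unadjusted and 2 by DESeq2) compares with 22.5% of all genes. In small RNA the 2 of 8 between the isolates (25%, with 3 unadjusted and 2 by DESeq2) compare with 18.6% of all genes, and the 1 of 8 between the Star groups (12.5%, with 3 unadjusted and 1 by DESeq2) with 14.5%. With 8 genes, these counts do not set the group apart from all genes. edgeR called 0 in small RNA between MY16_Star and MY16 (0 unadjusted, 0 by DESeq2), against 1.02%, and 0 between N2_Star and N2 (0 unadjusted, 0 by DESeq2), against 0.0245%. The difference between the Star contrasts had 0 called members in mRNA (1 unadjusted, 0 by DESeq2) and 0 in small RNA (0 unadjusted, 0 by DESeq2), against 0% and 0.368% of all genes.

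Small RNA log2 differences were above 0, that is higher in the MY16 groups, for 6 of the 8 in both comparisons, the exceptions being nrde-2 and emb-4. The median log2 difference of the 8 was 0.32 between the isolates and 0.46 between the Star groups, against -0.00 and -0.02 over all genes tested. In the mRNA the medians were 0.02 and -0.01, against -0.02 and -0.12. Groups did not overlap for 3 of the 8 in small RNA between the isolates and for 7 of 8 between the Star groups, where 33.3% and 50.2% of all genes did not overlap. In mRNA these counts were 0 of 8 and 3 of 8, against 23.9% and 36.7% of all genes. Between MY16_Star and MY16 they were 0 in both assays, against 10.7% in mRNA and 14.2% in small RNA, and between N2_Star and N2 1 in each, morc-1 mRNA and set-25 small RNA, against 18.9% and 15.5%. Each group enters more than 1 comparison, so these are not independent of each other.

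Small RNA against marker genes was called between the isolates for 2 higher and 6 lower of 55 tested, where 18.6% of all genes were called. Against the 20 oocyte and maternal germline markers it summed to 3031.5 to 3127 CPM in MY16 and 2229.6 to 2682 CPM in N2, with 1 of 19 tested called higher and 1 lower. Of those 19, 18 were above 0 between the isolates and 16 between the Star groups, and their median log2 differences of 0.32 and 0.33 compare with 0.32 and 0.46 for the 8 genes. Against the 18 intestine and muscle markers the sums were 59.3 to 122 CPM in MY16, 75.99 to 612 CPM in N2 and 536 to 612 CPM in N2_Star. Sperm markers had 1 higher and 2 lower of 19 and early embryo markers 0 higher and 1 lower of 6, and intestine and muscle markers 0 higher and 2 lower of 11. Between the Star groups, edgeR called 1 sperm marker higher and 2 lower, 1 early embryo marker lower, 4 intestine and muscle markers lower, and 0 oocyte markers (6 unadjusted, 0 by DESeq2). That is 1 higher and 7 lower of 55 tested, where 14.5% of all genes were called. In both comparisons these counts do not set the markers apart from all genes. The part of the marker genes in the small RNA results of nrde-2 and nrde-1 was not tested.

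**Figure D3:**
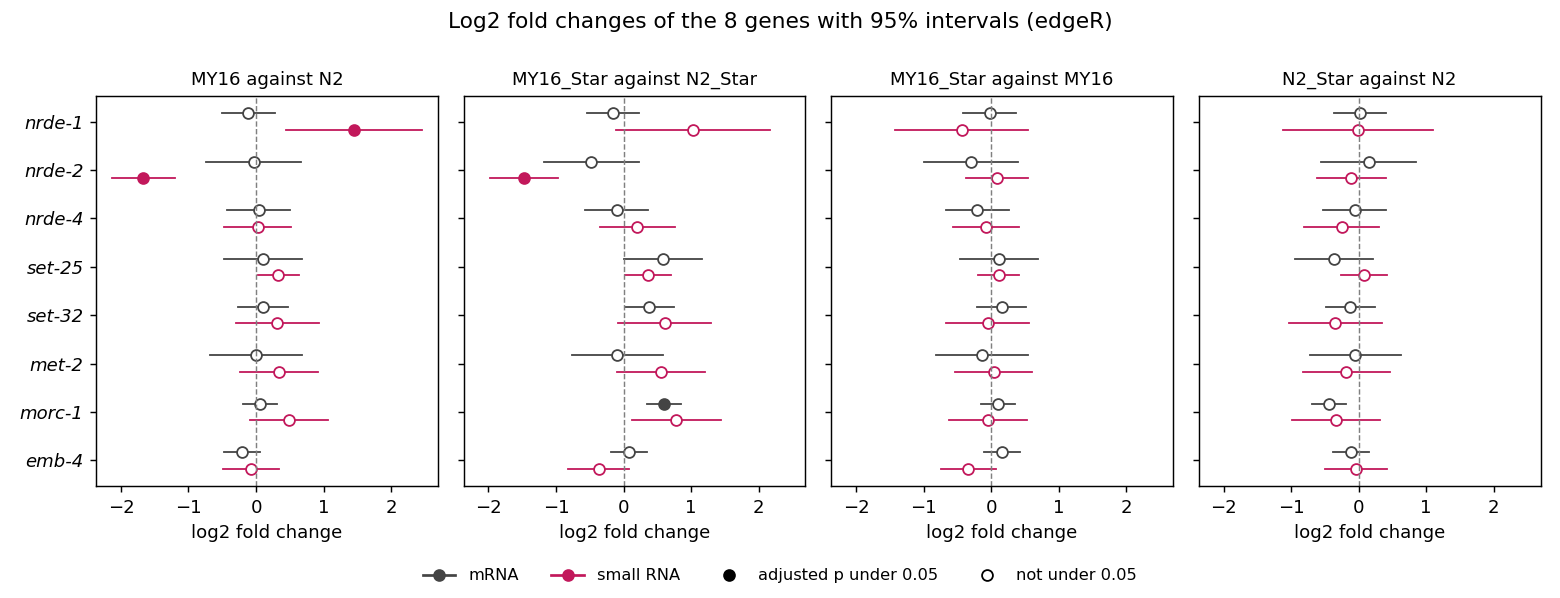
Log2 fold changes of the 8 genes in 4 comparisons, with the fold change on the horizontal axis and 1 row per gene. Grey is mRNA, pink is small RNA, lines are 95% intervals, and filled points have an edgeR adjusted p under 0.05. Filled points are nrde-2 at -1.67 and nrde-1 at 1.45 between the isolates in small RNA, and nrde-2 at -1.47 in small RNA and morc-1 at 0.60 in mRNA between the Star groups.

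Some of the mRNA of these genes varied together from library to library inside a group. In MY16_Star replicate 1, nrde-2 stood at 38.7%, met-2 at 36.9%, nrde-4 at 52.3% and nrde-1 at 60.8% of the mean of the other 2 libraries. The other 4 genes stood at 88.0% to 98.2% there. The share of all tested genes as low or lower in that library was 9.67%, 8.77%, 17.5% and 22.7% for those 4, so they were low but not alone. N2 replicate 1 was low for some of the same genes, with nrde-2 at 63.0%, met-2 at 73.3% and nrde-4 at 78.0%. Without MY16_Star replicate 1 the log2 difference of nrde-2 from MY16 went from -0.30 to 0.04 and that of met-2 from -0.14 to 0.21, and neither was called with or without it.

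In small RNA, the shallow N2 replicate 3 was low for set-32 at 45.7%, met-2 at 50.7%, morc-1 at 52.6% and nrde-4 at 57.9% of the mean of the other 2 N2 libraries. There nrde-2 was at 81.0%, set-25 at 89.7%, emb-4 at 102% and nrde-1 at 143%. Without MY16 replicate 1 and N2 replicate 3 together, the log2 difference between the isolates was -1.59 for nrde-2, with an edgeR adjusted p of 0.000298, and 0.73 for nrde-1, with 0.0748.

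**Figure D4:**
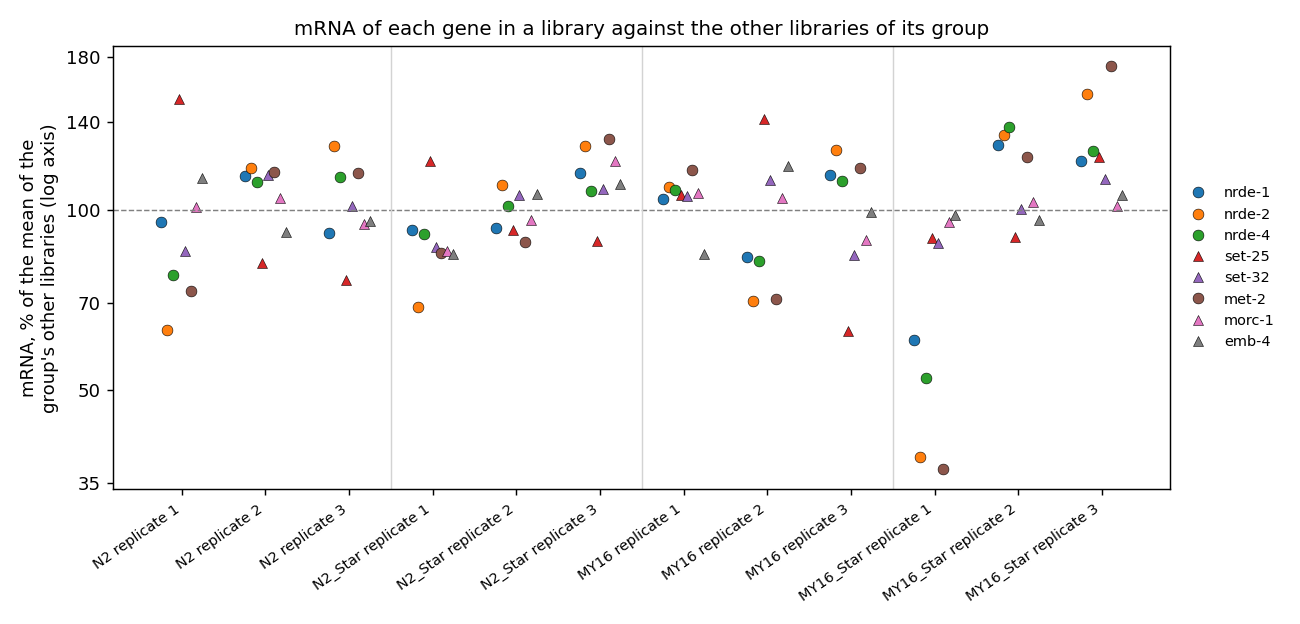
mRNA of each gene in each of the 12 libraries as a percent of the mean of the other libraries of the group, on a log axis. Circles are nrde-1, nrde-2, nrde-4 and met-2, triangles are set-25, set-32, morc-1 and emb-4, and the dashed line is 100%. In MY16_Star replicate 1 the circles are at 36.9% to 60.8% and the triangles at 88.0% to 98.2%. The circles were given to the genes low in that library, so the gap there follows from the choice of symbols.

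The amount of small RNA per mRNA of the same gene differed widely within the set. In N2 this ratio of CPM was 30.0 for set-25, 7.75 for set-32, 4.49 for morc-1, 4.44 for nrde-2, 2.001 for met-2, 1.39 for nrde-1, 0.428 for emb-4 and 0.398 for nrde-4. The median over 9849 genes was 0.652, and set-25 was at the 94.1th percentile and nrde-4 at the 35.3th. In MY16 the ratio of nrde-2 was 1.43 and that of nrde-1 was 4.12, against percentiles of 84.5 and 69.2 in N2 and 66.9 and 82.3 in MY16. The order of the other 6 genes was the same in both isolates, from set-25 at 35.1 to nrde-4 at 0.399 in MY16. The assays were made from separate libraries and CPM of one is not a molar share of the other, so the ratio is a description only.

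Among other genes of the pathway, calls in mRNA were about as frequent as over all genes, and 1 locus had a large difference in small RNA. Of 41 listed genes of nuclear RNAi and heterochromatin, 6 were higher and 3 lower in MY16_Star than in N2_Star mRNA, with DESeq2 calling 10 and 3. That is 22% of the list, against 22.5% of all genes tested. hrde-1, the germline nuclear Argonaute, had 824 ± 46.5 CPM in MY16_Star and 488 ± 115 CPM in N2_Star, a log2 difference of 0.76 with an edgeR adjusted p of 0.0119. lin-65, a cofactor of MET-2, was higher by 0.59, with an edgeR adjusted p of 0.0137. Lower genes were cec-4 at -0.77, the H3K27 demethylase gene jmjd-3.1 at -1.12, and the chromodomain gene cec-8 at -1.62. cec-8 is named because it completes that count, after its value was seen. The median log2 difference of the 41 was 0.15, against -0.12 over all genes. In mRNA between the isolates edgeR called 0 of the 41 (1 unadjusted, 0 by DESeq2), and it called 0 between MY16_Star and MY16 (1 unadjusted, 0 by DESeq2) and 0 between N2_Star and N2 (4 unadjusted, 1 by DESeq2).

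In small RNA, 2 of the 41 were higher and 0 lower in both comparisons of MY16 origin with N2 origin, with DESeq2 calling 1 between the isolates and 2 between the Star groups. That is 4.9% of the list, against 18.6% and 14.5% of all genes tested. The medians of the 41 were 0.22 and 0.33, against -0.00 and -0.02 over all genes. edgeR called 0 between MY16_Star and MY16 (2 unadjusted, 0 by DESeq2) and 0 between N2_Star and N2 (0 unadjusted, 0 by DESeq2).

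cec-4 encodes a chromodomain protein that anchors methylated histone H3 at the nuclear edge, and its small RNA was the most different of the 41. It was 166 ± 28.3 CPM in MY16 and 22.2 ± 3.43 CPM in N2 (SD, n = 3 each), a log2 difference of 2.92 ± 0.208 (SE) with an edgeR adjusted p of 1.91e-06. Between the Star groups it was 226 ± 38.4 CPM and 26.8 ± 3.80 CPM, a log2 difference of 3.08 with an adjusted p of edgeR of 6.99e-06. Its mRNA between the isolates was 27.7 ± 3.05 CPM in MY16 and 34.5 ± 2.02 CPM in N2, a log2 difference of -0.32 with an edgeR adjusted p of 0.555. The small RNA of nrde-3, the somatic nuclear Argonaute gene, was also higher, at 15.2 ± 0.947 against 8.81 ± 2.23 CPM between the isolates, with an edgeR adjusted p of 0.0419. Small RNA of hrde-1 was 557 ± 73.7 CPM in MY16 and 479 ± 72.0 CPM in N2, with a log2 difference of 0.22 and a 95% interval from -0.22 to 0.66.

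**Figure D5:**
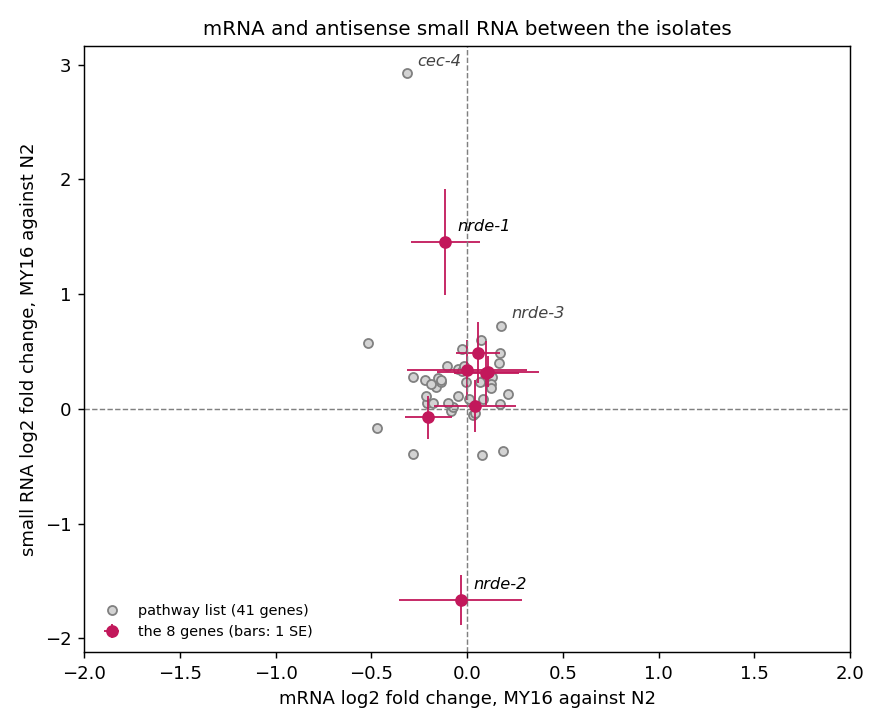
Log2 difference between MY16 and N2 in mRNA on the horizontal axis and in small RNA on the vertical axis. Pink points are the 8 genes with bars of 1 SE, and grey points are the 41 listed pathway genes. All mRNA differences of the 8 lie between -0.20 and 0.11, whereas their small RNA differences run from -1.67 for nrde-2 to 1.45 for nrde-1, and cec-4 lies highest at 2.92.

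Genes whose values followed those of the most strongly tested member were sought over all libraries, with log2(CPM + 1). For small RNA that member was nrde-2, over 11 libraries, and the 5 most alike were cest-25 at a Pearson r of 0.981, K09F6.3 at 0.981, C34F11.5 at 0.978, Y14H12B.2 at 0.978 and pqn-84 at 0.977. Small RNA of Y14H12B.2 averaged 207 CPM in N2, 177 CPM in N2_Star, 89.7 CPM in MY16 and 90.4 CPM in MY16_Star. C34F11.5 averaged 14.9 and 17.03 CPM in N2 and N2_Star, and 0.051 and 0.0784 CPM in MY16 and MY16_Star. Those last values, and those of pqn-84 at 0.0496 and 0.0241 CPM, are near 0. They lie under the level of 3 counts in every MY16 and MY16_Star library, the lowest being 0.217 CPM. K09F6.3 was at 0.401 and 0.496 CPM there, whereas nrde-2 kept 165 and 176 CPM. For mRNA that member was morc-1, over 12 libraries, and the 5 were gale-1 at 0.961, K11H3.3 at 0.960, lotr-1 at 0.947, erfa-1 at 0.942 and pps-1 at 0.939. All 5 had their lowest mean in N2_Star, as gale-1 with 48.0 CPM against 72.8 in N2, 75.1 in MY16 and 84.9 in MY16_Star. They were picked for likeness to morc-1, which was lowest in N2_Star too, so this is no separate result. The libraries share groups and scaling, so these values describe likeness only.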

How the data were processed

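Whole-worm RNA was extracted with TRIzol and libraries were prepared with NEBNext kits, per the labels' protocols. The submitters' processing notes name cutadapt, FastQC, Bowtie2, HTSeq and DESeq2 and the build ce11, with no versions. ce11 is the N2 genome, and the effect of sequence differences between the isolates on counts was not tested. The deposited tables hold raw counts per gene by the authors, 1 for each assay. In the small RNA table, 243 of 255 miRNA genes averaged under 1 CPM, and its name holds AS, read here as antisense, since the strand of counting is not given in the sources used here. Summary lines held 7.84% to 17.7% of mRNA and 38.7% to 46.6% of small RNA counts and were left out. A gene with no read could still have up to 3 counts, which came to between 0.127 and 0.311 CPM for mRNA libraries and between 0.134 and 1.95 for small RNA libraries, for counting error only.

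Each table was fitted whole in R 4.3.3 with edgeR 4.0.16 (TMM, filterByExpr, glmQLFit and glmQLFTest, 4 groups in 1 fit) with 5 contrasts, and p-values were adjusted by Benjamini-Hochberg. SE is the log2 difference over the square root of F, and 95% intervals use the t distribution of the fit. DESeq2 1.42.0 was an alternative, as were other size factors, no filter, fits of 2 groups, a replicate block and leaving out libraries. Procedures were tested on simulated data. Symbols were matched for 44017 of 46904 identifiers. The 8 genes, the pathway list, the marker lists and the rules for naming were chosen with earlier results of these data known. Of the listed pathway genes, those past the threshold were named, at most 4 per contrast by smallest p, with hrde-1 and nrde-3. Marker genes past the threshold were counted by list and not named. Another 5 genes were named by likeness to 1 member per assay.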

Additional observations from a re-analysis of the deposited data

How the results depend on the processing

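In small RNA between MY16 and N2 the 2 calls became 1 with RLE size factors, with only those groups in the fit, with the replicate block, and with MY16 replicate 1 and N2 replicate 3 both left out, an alternative chosen after seeing the data; leaving out 1 library gave 1 to 2. Where 1 N2_Star library was left, it was assumed to vary like the other groups. nrde-1 was the call lost, at a log2 difference of 1.46, 1.43, 1.23 and 0.73 and an edgeR adjusted p of 0.0507, 0.115, 0.0801 and 0.0748. Between the Star groups in small RNA the 1 call became 2 with no filter and with only those groups in the fit, both by adding nrde-1. In mRNA between the Star groups the 1 call became 2 with DESeq2 and 0 with only those groups in the fit, and between N2_Star and N2 the 0 became 1 with DESeq2. Small RNA of nrde-2 was called in both comparisons under every alternative run.

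The replicate numbers were not taken to pair the libraries, since same-numbered pairs did not all correlate above 0.1. Correlations of same-numbered deviations ran from -0.22 to 0.62 over 18 mRNA pairs and from -0.26 to 0.41 over 15 small RNA pairs, and 9 of 12 and 7 of 11 libraries correlated best with their own number. All 12 mRNA pairs numbered 1 or 3 were positive, at 0.19 to 0.62, a hint from the data of a shared component that the labels do not describe. The block lost the nrde-1 call and changed no other among the 8, but it moved the counts over all genes. In mRNA, 17 higher and 4 lower became 89 and 20 between N2_Star and N2. Between the isolates 240 and 323 became 296 and 422, and between the Star groups 1075 and 2070 became 1427 and 2598. In small RNA, 1047 and 1224 became 975 and 1140 between the isolates.

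Values near 0 changed sign, none of them called. In mRNA between MY16 and N2, met-2 was 0.025 with DESeq2, 0.018 with no filter, 0.040 with 2 groups, 0.029 with the replicate block and 0.026 with RLE, and nrde-2 was 0.0063 with 2 groups and 0.026 with the block. In mRNA between the Star groups without both libraries numbered 1, also chosen after seeing the data, met-2 was 0.18, nrde-1 0.012 and nrde-4 0.11. In small RNA between the isolates nrde-4 was -0.041 without MY16 replicate 1 and N2 replicate 3 and -0.024 with no filter, and between N2_Star and N2 nrde-1 was 0.015 with no filter. The cause was not tested.

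Leaving out 1 library gave these log2 ranges where a sign changed. For MY16 against N2 in mRNA, met-2 -0.082 to 0.20, nrde-1 -0.18 to 0.025, nrde-2 -0.16 to 0.17, nrde-4 -0.011 to 0.19, set-25 -0.016 to 0.42. For MY16_Star against MY16 in mRNA, met-2 -0.45 to 0.21, nrde-1 -0.12 to 0.19, nrde-2 -0.54 to 0.041, nrde-4 -0.33 to 0.050, set-25 -0.068 to 0.34. For MY16_Star against N2_Star in mRNA, met-2 -0.40 to 0.28, nrde-1 -0.25 to 0.077, nrde-4 -0.22 to 0.18. For N2_Star against N2 in mRNA, met-2 -0.19 to 0.053, nrde-1 -0.055 to 0.095, nrde-4 -0.12 to 0.00097. For the difference of the Star contrasts in mRNA, met-2 -0.40 to 0.22, nrde-1 -0.15 to 0.13, nrde-4 -0.31 to 0.074. For MY16 against N2 in small RNA, emb-4 -0.32 to 0.075, nrde-4 -0.16 to 0.16. For MY16_Star against MY16 in small RNA, met-2 -0.089 to 0.11, morc-1 -0.14 to 0.053, nrde-1 -0.77 to 0.46, nrde-2 -0.083 to 0.21, nrde-4 -0.20 to 0.073, set-32 -0.18 to 0.11. For N2_Star against N2 in small RNA, emb-4 -0.10 to 0.064, met-2 -0.47 to 0.084, nrde-1 -0.13 to 0.21, nrde-2 -0.29 to 0.089. For the difference of the Star contrasts in small RNA, met-2 -0.051 to 0.51, nrde-1 -0.76 to 0.45, nrde-2 -0.0020 to 0.39, set-25 -0.016 to 0.053.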
